A study of Sus scrofa with 2 samples.

Results

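SOD3, GPX3 and CBR2 are 3 genes for enzymes that act on oxidants and reactive carbonyls, and each was found on a single row among the 26881 gene rows of a droplet single-cell RNA dataset of pig endometrium, the lining of the uterus. They were chosen by name, with their high levels in uterine gland epithelium already known from these data, so their levels by library, cell class and cell below are descriptions and carry no test. The data hold 2 libraries, called library 2 and library 1 after the sample titles. The design describes a pair of artificially inseminated Yorkshire sows aged 3 years, with 1 animal at day 7 of gestation, before receptivity, and 1 at day 13, at receptivity. The titles do not say which day belongs to which library, so no day is assigned here, and sow, day and library cannot be told apart. With 1 library from 1 sow on each side, no difference has a replicate check, and all intervals cover counting error only.

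SOD3 is the secreted, extracellular copper-zinc superoxide dismutase, which turns superoxide into hydrogen peroxide and binds to matrix and cell surfaces. GPX3 is the secreted glutathione peroxidase found in plasma, a selenoprotein that reduces peroxides. CBR2, known from pig and mouse lung, is a carbonyl reductase of the short-chain dehydrogenase family that uses NADPH to reduce ketones and aldehydes. Uterine glands secrete proteins into the lumen before the conceptus attaches, and in the pig the main one is uteroferrin, an iron-containing acid phosphatase encoded by ACP5.

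Library 2 held 15093 barcodes with 87514969 unique molecular identifiers (UMIs, counts of distinct captured molecules) and a median of 4335 per barcode. Library 1 held 10045 barcodes with 45388759 UMIs and a median of 3431. After removal of called doublets, 12652 cells were left in library 2 and 8883 in library 1, and 48 barcode sequences occurred in both libraries (0.318% and 0.478% of their barcodes). Epithelial-like cells, named from 13 markers that had a symbol, numbered 3138 in library 2 and 231 in library 1, and all 13 markers were detected in both. They came from different clusters: the 231 cells of library 1 sat in a cluster that held 11 cells of library 2. The library 1 class also included a subcluster of 50 cells led by cilium genes such as TPPP3, whereas library 2 had a separate ciliated epithelial-like cluster of 556 cells. A list of 6 gland epithelium genes was mixed between the libraries, in CPM (the gene's UMIs relative to all UMIs of the group) across the library 2 epithelial subclusters of over 40 cells, against the largest library 1 subcluster. FOXA2, a transcription factor of gland epithelium, gave 17.5 to 79.4 CPM in library 2 and 119 CPM in library 1, SOX17 gave 23.3 to 46.8 CPM and 40.6 CPM, and MSX1 gave 143 to 749.7 CPM and 685 CPM. PAX8, a transcription factor of the uterine epithelium, was at 371 to 1414 CPM in library 2 and at 8.21 CPM in library 1. PAEP had 0 UMIs in all of these subclusters, and SCGB1A1 had 1 UMI in a single subcluster of library 2.

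All 3 genes were abundant in the epithelium of library 2 and near the limit of detection in that of library 1. SOD3 had 39634 UMIs or 1823 CPM in library 2 epithelial-like cells, against 23 UMIs or 7.07 CPM in library 1, a 258-fold ratio (log2 8.01, 95% interval 7.42 to 8.67). GPX3 had 8280 UMIs or 381 CPM in library 2 and 2 UMIs or 0.615 CPM in library 1. With the library 1 count set to 3 UMIs, its log2 ratio was 8.69, and the interval from the observed 2 UMIs ran from 7.42 to 12.32. CBR2 had 26090 UMIs or 1200 CPM in library 2 and 8 UMIs or 2.46 CPM in library 1, a 488-fold ratio (log2 8.93, 7.95 to 10.14). The library 1 values rest on a handful of molecules in 231 cells, so the direction is well counted and the size is not. Across all genes with a symbol and at least 10 UMIs in these cells, 21.2% were at least 2-fold higher in library 2 with an interval above 0. Among the 1404 genes with at least 100 CPM in library 2 epithelial-like cells, the 3 ranked 3rd (CBR2), 5th (GPX3) and 6th (SOD3) by this ratio, on the contrast they were chosen for.

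Epithelial-like cells were 24.8% of the cells of library 2 and held 82.0% of its SOD3 UMIs, 77.8% of its GPX3 UMIs and 82.5% of its CBR2 UMIs. SOD3 was detected in 72.8% of them (exact 95% interval 71.3 to 74.4%), GPX3 in 54.7% (52.9 to 56.4%) and CBR2 in 79.7% (78.2 to 81.1%), at a median depth of 4544 UMIs. The same shares in T or NK cell-like cells of library 2, a class outside the epithelium with a median of 1667 UMIs, were 18.1% for SOD3, 8.28% for GPX3 and 21.4% for CBR2. Over the 8 classes outside the epithelium they ran from 18.1% to 42.8% for SOD3, 5.48% to 19.5% for GPX3 and 20.5% to 39.1% for CBR2. With every cell reduced to 1000 UMIs, epithelial-like cells showed SOD3 in 55.7%, GPX3 in 25.0% and CBR2 in 54.2%, against 11.3%, 4.38% and 11.5% of T or NK cell-like cells.

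**Figure D1:**
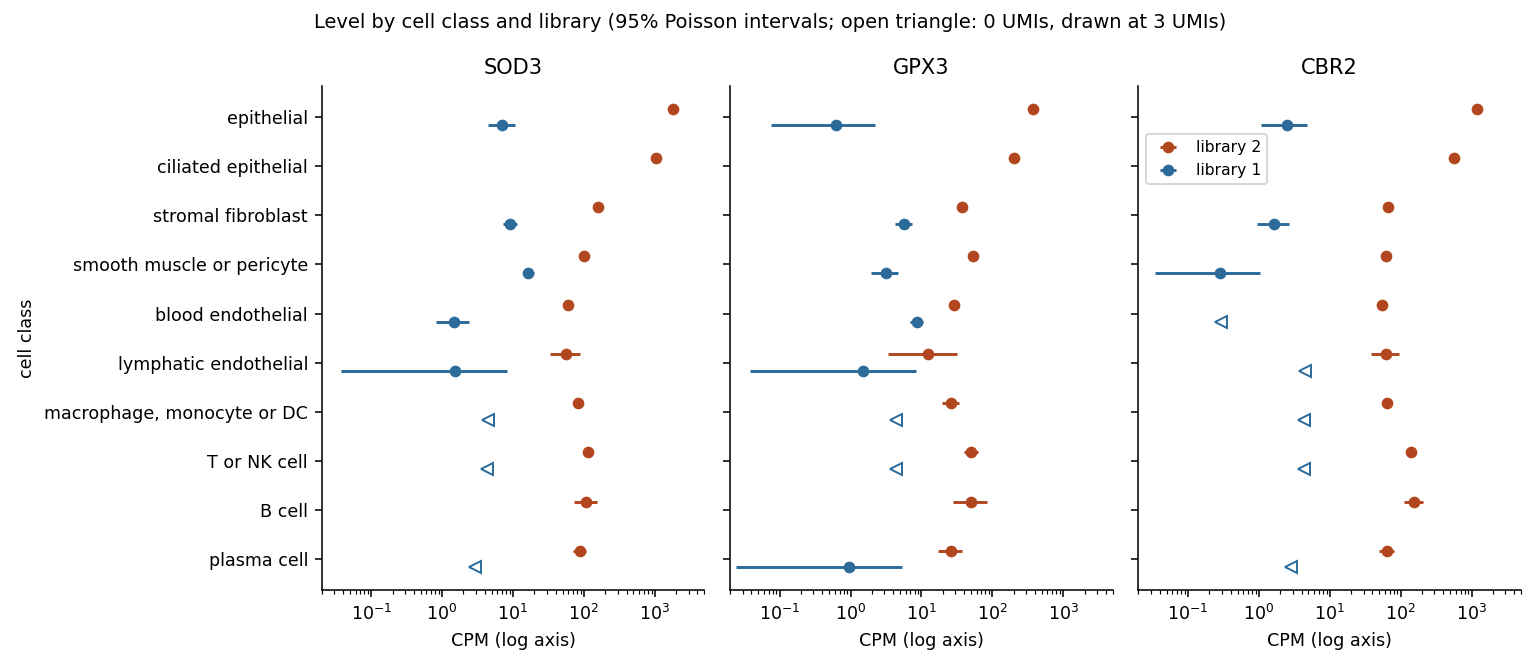
Level of SOD3, GPX3 and CBR2 (CPM, log axis) in each named cell class with at least 50 cells, library 2 above library 1, with 95% Poisson intervals; open triangles mark classes with 0 UMIs, drawn at 3 UMIs. The 3 genes are highest in epithelial-like cells of library 2 (1823, 381 and 1200 CPM), and in library 1 no named class passes 16.5 CPM.

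Within library 2 the order of levels began the same way for each gene. Among named classes, SOD3 was highest in epithelial-like cells, then ciliated epithelial-like (1025 CPM) and stromal fibroblast-like cells (157 CPM), and these steps exceeded counting error. Below them, T or NK cell-like, B cell-like, smooth muscle or pericyte-like, plasma cell-like and macrophage-like cells lay between 114 and 83.8 CPM, with intervals that overlapped from each to the next. Blood endothelial-like cells (58.9 CPM) and lymphatic endothelial-like cells (55.7 CPM) were lowest and overlapped. GPX3 stood at 201 CPM in ciliated cells and 52.6 CPM in smooth muscle or pericyte-like cells, whose interval overlapped that of T or NK cell-like cells (50.4 CPM). CBR2 stood at 565 CPM in ciliated cells, then at 154 CPM in B cell-like and 141 CPM in T or NK cell-like cells, which overlapped, and at 54.3 to 65.7 CPM in the other classes. An unnamed library 2 cluster of 1181 shallow cells (median 1077 UMIs) had 482 CPM of SOD3, 148 of GPX3 and 547 of CBR2. For each gene this lay between the ciliated class and the next named class, and for CBR2 its interval overlapped the ciliated one. Per cell it held 0.588, 0.180 and 0.666 UMIs. Leaving out the ciliated class and unnamed clusters, the epithelial level was 11.6-fold that of the next class for SOD3 (log2 3.54, 3.46 to 3.61). The fold was 7.24 for GPX3 (log2 2.86, 2.69 to 3.03) and 7.78 for CBR2 (log2 2.96, 2.54 to 3.41). These folds were smaller with called doublets kept, at log2 1.56 for SOD3, 1.68 for GPX3 and 1.87 for CBR2 over T or NK cell-like cells, and with the libraries clustered separately, at 2.59 for SOD3 and 2.48 for GPX3 over lymphatic endothelial-like cells. Of all genes with a symbol and at least 50 UMIs in library 2, 5.00% reached 2-fold by this measure.

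In the ciliated epithelial-like cells the molecules were unevenly spread. The median ciliated cell had 0 SOD3, 0 GPX3 and 1 CBR2 UMI, and the top 10% of cells held 74.2% of the SOD3, 69.1% of the GPX3 and 60.1% of the CBR2 UMIs. In epithelial-like cells the medians were 5, 1 and 4 UMIs and the top 10% held 52.6%, 51.0% and 44.2%. ACP5 in the ciliated class had a median of 6 UMIs, a 90th percentile of 212.5 and a maximum of 1537, and the top 10% of cells held 63.7% of its UMIs. Whether gland cells captured in the same droplets carried these molecules was not tested.

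ACP5 molecules were found in 94.2% to 99.2% of cells in every non-epithelial class of library 2, a level of ACP5 that every class shared. Outside plasma cells, which were sequenced deepest (median 11515 UMIs), the mean was 3.99 to 5.16 ACP5 UMIs per cell in classes as unlike as T or NK cells and lymphatic endothelium. CBR2 followed the same pattern, with 0.256 to 0.368 UMIs per cell in these 7 classes, a 1.44-fold spread. SOD3 did not: it had 0.206 UMIs per cell in T or NK cell-like cells, 0.441 in smooth muscle or pericyte-like cells and 0.732 in stromal fibroblast-like cells. GPX3 had 0.0912 UMIs per cell in T or NK cell-like cells, 0.158 in blood endothelial-like, 0.175 in stromal fibroblast-like and 0.227 in smooth muscle or pericyte-like cells.

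**Figure D2:**
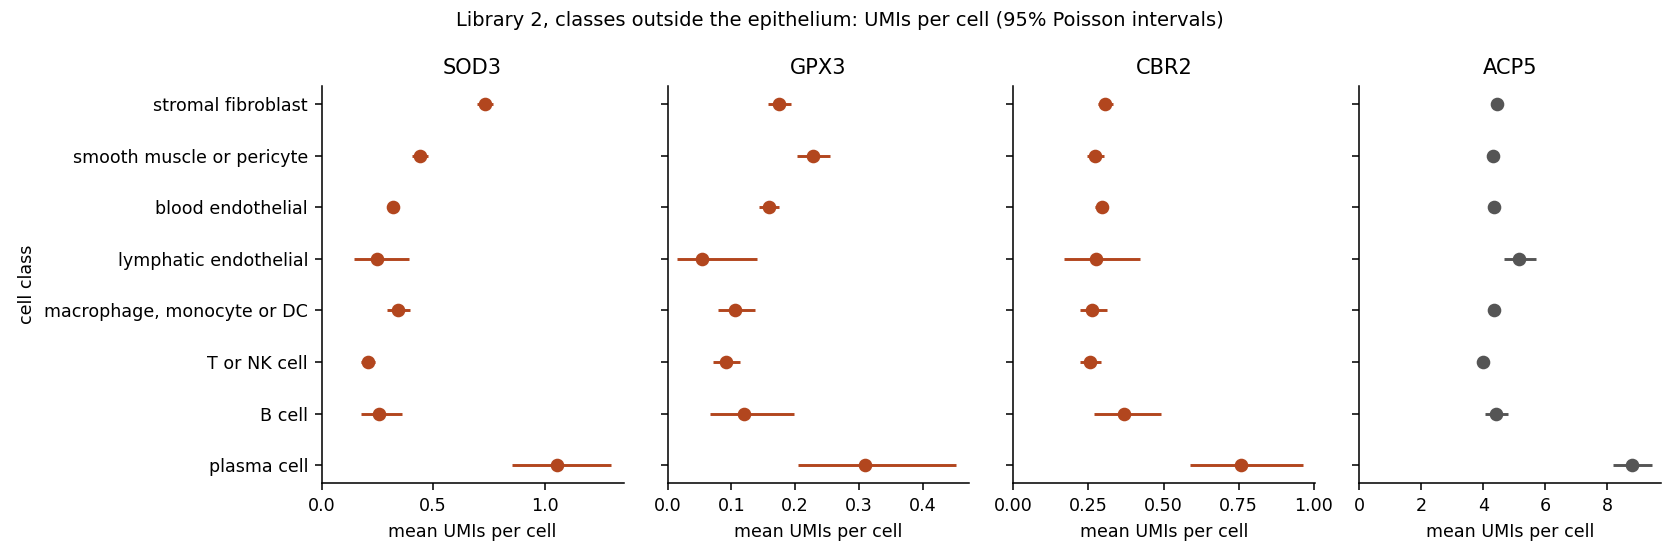
Mean UMIs per cell (linear axes from 0, 95% Poisson intervals) of SOD3, GPX3, CBR2 and ACP5 in the 8 named classes of library 2 outside the epithelium. Apart from the deeply sequenced plasma cells, ACP5 and CBR2 are nearly level across classes, while SOD3 reaches 0.732 in stroma and GPX3 0.227 in smooth muscle or pericytes.

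The genes were also set against ACP5 in the same cells. CBR2 gave 5.31 to 8.62 UMIs per 100 ACP5 UMIs in the 8 classes outside the epithelium, against 6.57 in epithelial-like cells, where the 2 large clusters differed (3.95 and 32.2). SOD3 gave 9.98 per 100 in epithelial-like cells, 5.18 (4.42 to 6.04) in T or NK cell-like cells and 16.5 (15.6 to 17.4) in stromal fibroblast-like cells. GPX3 gave 2.08 per 100 in epithelial-like cells, 2.29 (1.80 to 2.87) in T or NK cell-like cells, 3.93 (3.54 to 4.36) in stromal fibroblast-like cells and 5.28 (4.69 to 5.93) in smooth muscle or pericyte-like cells. SOD3 in stroma and GPX3 in smooth muscle or pericytes exceeded the ratio of epithelial-like and of T or NK cell-like cells by more than counting error. The stromal SOD3 ratio was 21.0 (19.7 to 22.5) and 11.6 (10.6 to 12.7) in its 2 main clusters. The muscle GPX3 ratio was carried by 1 of 2 main clusters, at 6.15 (5.41 to 6.96), while the other gave 2.56 (1.79 to 3.57), which overlapped epithelial-like and T or NK cell-like cells. Free RNA was not measured, and its part in the levels outside the epithelium was not tested. With UABP-2, the gene of a uteroferrin-associated protein, in place of ACP5 (chosen after its values were seen), the stromal SOD3 ratio and the muscle GPX3 ratio were again the highest, at 43.0 and 13.95 per 100, and CBR2 ranged from 16.6 to 21.8.

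Library 1 had almost no ACP5 in its epithelium (15 UMIs in 231 cells) and 0.00183 to 0.00847 ACP5 UMIs per cell in its muscle, stromal and blood endothelial classes. ACP5 was present there at 1.33 UMIs per cell in lymphatic endothelial-like, 0.417 in macrophage-like and 0.213 in T or NK cell-like cells, so it is not a gene of epithelium alone. SOD3 was highest there in smooth muscle or pericyte-like cells (116 UMIs, 16.5 CPM), followed by stromal fibroblast-like cells (89 UMIs, 9.13 CPM), whose interval overlapped that of epithelial-like cells (7.07 CPM). No SOD3 UMI was found in 475 T or NK cell-like cells, 187 macrophage-like cells or 83 plasma cell-like cells, with upper 95% Poisson limits of 5.33, 5.39 and 3.53 CPM. GPX3 was highest in blood endothelial-like cells (89 UMIs, 8.67 CPM), next to stromal fibroblast-like cells (5.64 CPM), and epithelial-like cells ranked 6th of 8 classes. Of the 89 endothelial GPX3 UMIs, 86 fell in the larger of the 2 endothelial clusters (2155 cells). CBR2 had 30 UMIs in all kept cells of library 1: 16 in stromal fibroblast-like cells, 8 in epithelial-like cells and 2 in smooth muscle or pericyte-like cells.

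Above every named class of library 1 stood an unnamed cluster of 580 cells led by SULT1E1, the oestrogen sulfotransferase, and by the contractile genes ACTG2 and CNN1. It held 96 SOD3 UMIs (45.1 CPM) and 124 GPX3 UMIs (58.3 CPM), of 355 and 300 in all kept cells, but 4 CBR2 UMIs (1.88 CPM). A cluster of 56 cells led by IL13RA2 had 12 SOD3 UMIs (43.5 CPM) and 0 GPX3 UMIs. These clusters were singled out after their values were seen. Both secreted antioxidant enzymes were thus highest in epithelial-like cells in library 2 and, in library 1, in this contractile cluster, where the SOD3 interval overlapped that of the IL13RA2-led cells.

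The library 2 epithelium was not uniform, and CBR2 ran against the other members between some of its subclusters but not all. The cells were grouped again without using the 3 genes, and subclusters are called by their leading genes. The subcluster highest in ACP5 (478 cells, led by SULT2A1, SLPI and EDNRB) had 2975 CPM of SOD3, 1001 CPM of GPX3 and 609 CPM of CBR2. The subcluster highest in SAL1, a lipocalin gene (557 cells, SAL1 4622 CPM), had 321 CPM of SOD3, 49.7 CPM of GPX3 and 1858 CPM of CBR2. Between these subclusters, which were paired after their values were seen, SOD3 was 9.26-fold higher in the ACP5-highest one (log2 3.21, 3.13 to 3.29) and GPX3 20.1-fold higher (log2 4.33, 4.14 to 4.53), while CBR2 was lower there (log2 -1.61, -1.68 to -1.54), 3.05-fold in favour of the SAL1-highest cells. Their median depths were 5840.5 and 5625 UMIs per cell. Of 6331 genes with a symbol compared, 6.92% were at least 2-fold higher in the ACP5-highest subcluster and 12.6% at least 2-fold lower.

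The other subclusters filled in a gradient. The subcluster led by GLIPR2, CTSH and TMEM243 (521 cells) had 2789 CPM of SOD3, 565 of GPX3 and 985 of CBR2. The one led by COL23A1, CD14 and PDK4 (631 cells) had 2076 CPM of SOD3, 328 of GPX3 and 1253 of CBR2. A subcluster led by FRMPD4 and TACR1 (226 cells) had 1221, 181 and 1474 CPM. Across these 5 subclusters, taken from the highest to the lowest ACP5 among those of over 200 cells other than the shallow one described next, SOD3 and GPX3 were lower at each step and CBR2 was higher.

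In the subcluster led by RANBP17 and DLGAP1 (486 cells, median 1418 UMIs), SOD3 and GPX3 per cell were near the levels of T or NK cell-like cells. It had 0.261 SOD3 and 0.0844 GPX3 UMIs per cell, against 0.206 and 0.0912 in T or NK cell-like cells, and its 5.17 ACP5 UMIs per cell lay at the upper end of the range outside the epithelium. CBR2, at 0.798 UMIs per cell, stood above the 0.256 of T or NK cell-like cells. A small subcluster led by UPTI, a uterine protease inhibitor gene, and NMU (46 cells) was low in CBR2 (315 CPM) and ACP5 (3368 CPM) yet held 1153 CPM of SOD3 and 140 CPM of GPX3, and it was also the highest in SPP1 (694.5 CPM) and PTGS2 (435 CPM). Subclusters of 129 and 59 cells carried leading genes of other cell types (LDB2 and EBF1 in one, CCL5 and PTPRC in the other) at median depths of 15787 and 11193 UMIs, and without them the epithelial log2 ratios were 7.97 for SOD3, 8.74 for GPX3 and 8.94 for CBR2.

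**Figure D3:**
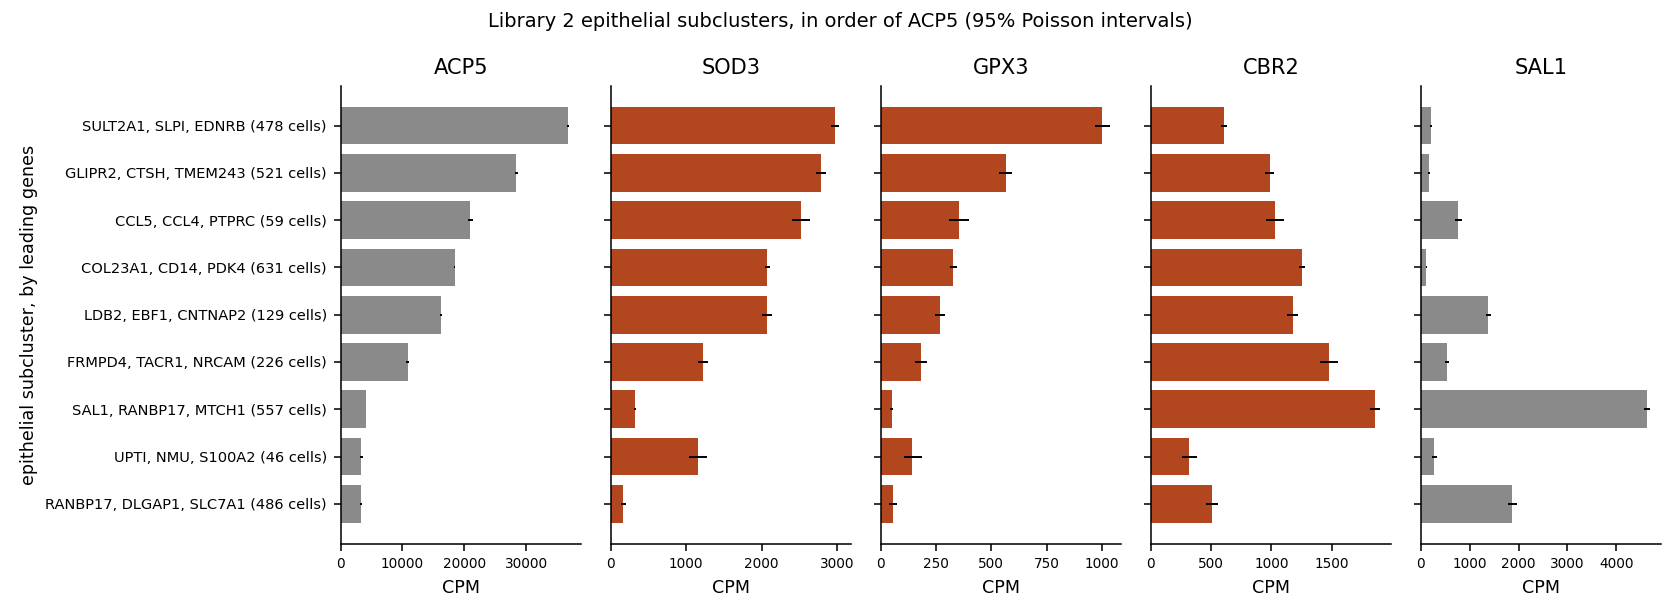
CPM (axes from 0, 95% Poisson intervals) of ACP5, SOD3, GPX3, CBR2 and SAL1 in the library 2 epithelial subclusters with at least 40 cells, from the highest ACP5 at the top to the lowest. SOD3 and GPX3 are highest at the top (2975 and 1001 CPM), whereas CBR2 is highest in the SAL1-led subcluster (1858 CPM).

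The 3138 library 2 cells were also ranked by the ACP5 share of their UMIs and divided into 4 groups of equal size. From the lowest to the highest ACP5 group, SOD3 measured 170, 915, 2141 and 3085 CPM and GPX3 34.1, 119, 354 and 795 CPM. CBR2 measured 1324, 1736, 1243 and 694 CPM, with its peak in the second group, and SAL1 measured 5827, 1146, 166 and 131 CPM. Median depth was 3250, 3597, 6246 and 6076 UMIs per cell, so the groups also differed in depth. With cells reduced to 1000 UMIs, SOD3 was detected in 12.6%, 38.5%, 77.2% and 90.0% of cells, GPX3 in 3.02%, 10.1%, 32.9% and 51.0%, and CBR2 in 53.4%, 64.3%, 59.2% and 41.3%.

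**Figure D4:**
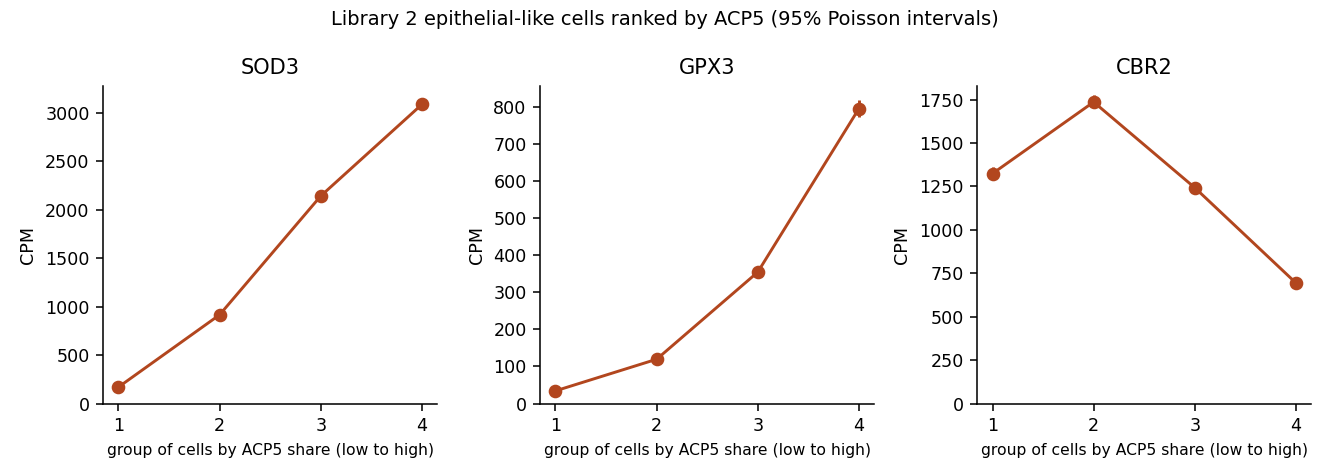
CPM of SOD3, GPX3 and CBR2 (axes from 0, 95% Poisson intervals) in 4 equal groups of the 3138 library 2 epithelial-like cells ranked by ACP5 share, lowest on the left. SOD3 and GPX3 are higher in each group than in the one before, and CBR2 peaks at 1736 CPM in the second.

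The number of members detected per cell was counted with all UMIs and with cells reduced to 1000 UMIs, which lowers detection by design. With all UMIs, all 3 genes were detected in 1423 of the 3138 cells (45.3%), a pair of them in 787, 1 in 660 and none in 268 (8.54%). Cells with CBR2 as the sole member (492) outnumbered those with SOD3 alone (133) or GPX3 alone (35). With cells reduced to 1000 UMIs, all 3 were detected in 271 of 2952 cells (9.18%), a pair in 989, 1 in 1194 and none in 498, and CBR2 alone was found in 668, SOD3 alone in 446 and GPX3 alone in 80. Single detections with all UMIs are to be read beside the classes outside the epithelium. There, 18.1% to 42.8% of cells had an SOD3 UMI and 20.5% to 39.1% a CBR2 UMI. Across cells, on log UMIs per 10000, SOD3 correlated with GPX3 at Pearson r = 0.62, with ACP5 at 0.75 and with SAL1 at -0.46. CBR2 was near 0 with SOD3 (0.05), GPX3 (-0.07) and ACP5 (-0.02). In the 2271 cells with at least 3000 UMIs (a limit chosen after the values were seen), SOD3 and GPX3 gave 0.61, while CBR2 gave -0.26 with SOD3, -0.31 with GPX3 and -0.26 with ACP5. These coefficients describe cells of 1 library, which share its depth range.

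The genes most like SOD3 among 4923 genes detected in at least 10% of these cells were FTH1, the ferritin heavy chain (0.75), ACP5 (0.75), TIMP2, a metalloproteinase inhibitor (0.74), RBP4, the retinol carrier (0.73), and UABP-2 (0.72). GPX3 shared 4 of these 5 (UABP-2 0.66, TIMP2 0.66, ACP5 0.65, RBP4 0.60) and SOD3 itself (0.62) was the remaining one. The genes most like CBR2 were RPS4X (0.45), NACA (0.40), MTCH1 (0.40), TUBA1A (0.40) and RPL9 (0.39), which include ribosomal protein genes and a nascent-chain binding factor, and none of the secretory genes. Over the 18 combinations of class and library with at least 50 cells, the members were close to each other: SOD3 correlated with CBR2 at 0.98 and with GPX3 at 0.97, followed by SLC35F3, UABP-2 and TUFT1 (each 0.96). GPX3 was next closest to SULT2A1 (0.96), UBALD1 (0.95) and RNF223 (0.94), and CBR2 was closest to UABP-2 (0.99), ATP6V1C2 (0.98) and SLC35F3 (0.98). These 18 points mix both libraries and include the library 2 epithelium for which the members were chosen, so the likeness is in part given by the choice.

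Their nearest relatives differed from them. SOD1, the cytosolic copper-zinc dismutase, had 138 CPM in epithelial-like cells of library 2 and 319 CPM in those of library 1 (log2 -1.21, -1.31 to -1.11). SOD2, the mitochondrial manganese enzyme, had 27.0 CPM in library 2 epithelium and 25.2 CPM in library 1 epithelium (log2 0.10, -0.24 to 0.45). In library 2, SOD2 was higher in stromal fibroblast-like (253 CPM), macrophage-like (245 CPM) and blood endothelial-like cells (218 CPM). GPX4, which reduces lipid hydroperoxides, measured 252 CPM in epithelium of library 2, against 178 CPM in library 1 (log2 0.50, 0.38 to 0.63), and 314.7 CPM in T or NK cell-like cells of library 2. GPX8, of the endoplasmic reticulum, was highest in stroma in both libraries (115 CPM in library 2, 232 CPM in library 1), and its epithelial level was 3.36 CPM in library 2 and 9.53 CPM in library 1. GPX2 gave 0.966 CPM in library 2 epithelium and 2.46 CPM in library 1 epithelium.

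Among carbonyl reductases, CBR1 measured 20.9 CPM in epithelium of library 2, against 47.4 CPM in library 1 (log2 -1.18, -1.44 to -0.90). CBR4, a mitochondrial enzyme, measured 12.5 CPM in library 2, against 39.4 CPM in library 1 (log2 -1.65, -1.96 to -1.34). CBR3 had 11 UMIs in library 2 epithelium and 1 in library 1 epithelium, and was highest in stromal fibroblast-like cells, at 25.9 CPM in library 2 and 14.9 CPM in library 1. Among the SOD, GPX and CBR genes with at least 10 UMIs in these cells, GPX4 had the highest ratio besides the members, with counts under 3 set to 3. Its place above CBR3 depends on that setting, as the observed CBR3 levels were 0.506 CPM in library 2 and 0.307 CPM in library 1.

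Across 11 lists of redox and carbonyl genes, 104 genes besides the members had at least 10 UMIs in epithelial-like cells. Of these, 16 were at least 2-fold higher in library 2 (15.4%, against 21.2% of all genes) and 36 at least 2-fold lower (34.6%, against 22.6%). Their median log2 ratio was -0.43, against -0.15 over all genes. The list with the largest share of lower genes was that of aldo-keto reductases and aldehyde dehydrogenases, where 9 of 14 were lower and 2 higher. ALDH1A3, an enzyme of retinoic acid synthesis, had 29.8 CPM in library 2 epithelium and 245 CPM in library 1 epithelium (log2 -3.04). AKR1A1, an aldehyde reductase, had 54.8 CPM in library 2, against 290.3 CPM in library 1 (log2 -2.41). ALDH3A1 went the other way, with 1542 UMIs (70.9 CPM) in library 2 and 0 in library 1. Its log2 ratio was 6.26 with 3 UMIs set for the library 1 class, and the interval from the observed 0 UMIs started at 5.96.

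In the list of carbonyl and short-chain reductases and related dehydrogenases, 3 of 17 were higher, CBR2 included (17.6%, against 21.2% of all genes). In the same list 7 were lower (41.2%, against 22.6% of all genes). DHRS3, a retinal reductase, had 207 CPM in library 2, against 40.3 CPM in library 1 (log2 2.36). HSD17B7 had 214 CPM in library 2, against 50.4 CPM in library 1 (log2 2.09). HPGD, which inactivates prostaglandins, had 13.9 CPM in library 2, against 71.3 CPM in library 1 (log2 -2.36).

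The lists that hold genes supplying the cofactors of SOD3 and GPX3, beside other genes, were mixed. In the dismutase and copper list, 2 of 6 were higher, SOD3 included, and 2 lower, SOD1 included (33.3% each). Over all genes, 21.2% were higher and 22.6% lower. SLC31A1, the copper importer, had 109 CPM in library 2, against 13.8 CPM in library 1 (log2 2.97), whereas the copper chaperone ATOX1 had 115 CPM in library 2, against 496.0 CPM in library 1 (log2 -2.11). Of 9 selenoprotein and selenoprotein synthesis genes, 3 were higher (33.3%) and 1 lower (11.1%). SECISBP2, which binds the selenocysteine insertion element, had a log2 ratio of 1.97 (126 CPM in library 2, 32.0 CPM in library 1), and SEPSECS, of selenocysteine synthesis, one of 2.40 (40.6 CPM in library 2, 7.69 CPM in library 1). SELENOI gave 2.46 and SELENOH -1.50 on the same scale, and the synthesis genes SECISBP2L and EEFSEC gave 0.04 and -0.75.

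The list of NRF2 and haem defence genes had most higher members, 5 of 13 (38.5%), and 2 lower (15.4%). Over all genes these shares were 21.2% and 22.6%, and the counts of the small lists below are to be read beside them. HMOX2, a haem oxygenase, had 776 CPM in library 2, against 72.9 CPM in library 1 (log2 3.41). FTH1 had 18983 CPM in library 2, against 4425 CPM in library 1. BACH1, a haem-sensing repressor, had 276 CPM in library 2, against 68.3 CPM in library 1 (log2 2.02). Among catalase, peroxiredoxins and thioredoxin genes 1 of 11 was higher and 4 were lower, with log2 ratios of -1.35 for PRDX2, -1.55 for PRDX3 and -1.75 for TXNIP, a thioredoxin inhibitor. In glutathione synthesis and recycling 2 of 8 were higher and 3 lower, with -1.96 for GGCT and 0.38 for SLC3A2, a subunit of the cystine transporter. None of 9 glutathione transferases was 2-fold higher and 3 were lower, among them MGST3 (log2 -1.82) and GSTA4 (log2 -1.79). None of 9 NADPH supply genes was higher and 3 were lower, among them TKT (log2 -1.40), while PGLS (-0.77) and IDH2 (-0.73) lay inside the 2-fold limit. Of 7 oxidant sources, 1 was lower and none higher.

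In library 2, place was measured as the fold of epithelial-like cells over the highest other named class, the ciliated class left out. Of 105 list genes besides the members, 11 reached 2-fold (10.5%, against 5.00% of all genes). They were the metallothioneins MT1A (900.2 CPM) and MT2A (2350 CPM), the transferases GSTM3 (451 CPM) and MGST2 (70.5 CPM), and HMOX2, ALDH3A1, ALDH1L1, GLRX2, HSD17B7, SEPSECS and the polyamine oxidase SMOX. Of these 11 genes, 5 lay within 2-fold between the libraries. MT2A had a log2 ratio of 0.72, GLRX2 of 0.31, MGST2 of 0.12, SMOX of 0.07 and GSTM3 of -0.98. ALDH3A1 had the ratio nearest to those of the members.

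**Figure D5:**
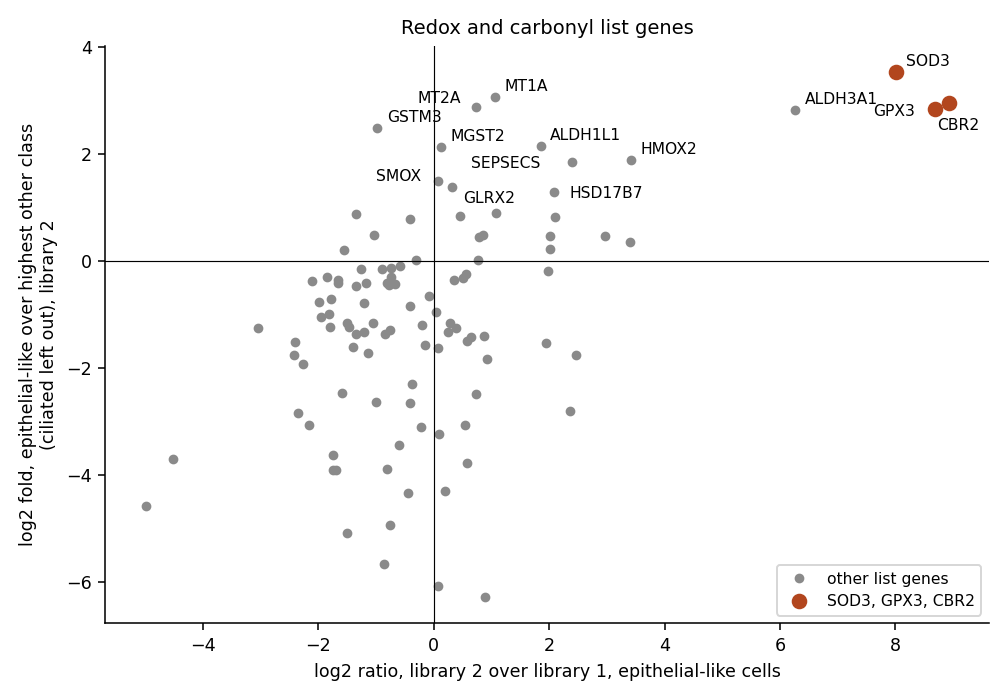
Each point is a gene of the redox and carbonyl lists. The horizontal axis is the log2 ratio of library 2 over library 1 in epithelial-like cells. The vertical axis is the log2 fold of epithelial-like cells over the highest other class of library 2, ciliated cells left out. ALDH3A1 is drawn at 6.26, with its 0 UMIs in library 1 set to 3. On the horizontal axis the 3 members, at ratios of 8.01 to 8.93, lie apart from the other redox and carbonyl genes. On the vertical axis MT1A (3.08) lies above CBR2 (2.96) and GPX3 (2.86). Gland secretory genes are not drawn, and members are not apart from them. Their list was chosen with earlier results of these data known and also holds FOXA2, a transcription factor. Of those 11 genes, 10 were at least 2-fold higher in library 2 (21.2% of all genes), among them TIMP2 (log2 7.29), ATP6V1C2 (8.77) and ACP5 (11.95).

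Within the library 2 epithelium the same lists also divided between the ACP5-highest and SAL1-highest subclusters. Of 90 list genes compared besides the members, 11 were at least 2-fold higher in the ACP5-highest cells (12.2%, against 6.92% of all genes) and 12 at least 2-fold lower (13.3%, against 12.6%). On the SOD3 and GPX3 side was HPGD, with 30.9 CPM in the ACP5-highest cells, against 1.94 CPM in the SAL1-highest cells (log2 4.00). MGST2, a microsomal glutathione transferase, had 196 CPM in the ACP5-highest cells, against 13.8 CPM in the SAL1-highest cells (log2 3.83). GCLC, the catalytic subunit of the first enzyme of glutathione synthesis, had 47.5 CPM in the ACP5-highest cells, against 4.74 CPM in the SAL1-highest cells (log2 3.33). The other 8 were ALDH18A1 (log2 2.30), RDH10 (1.96), SEPSECS (1.75), PRDX5 (1.72), FTH1 (1.57), ALDH3A1 (1.55), MAOA (1.34) and SLC31A1 (1.29). On the CBR2 side, GLRX2, a glutaredoxin, had 69.6 CPM in the ACP5-highest cells, against 394 CPM in the SAL1-highest cells (log2 -2.50). The other 11 were DHRS4 (-1.99), ALDH1A3 (-1.79), AOX1 (-1.74), HSD17B7 (-1.22), CBR4 (-1.21), TXNRD1 (-1.12), PRDX6 (-1.10), NADK2 (-1.06), MT1A (-1.04), SOD1 (-1.04) and GSTM3 (327 CPM in the ACP5-highest cells, 655 CPM in the SAL1-highest cells). Genes of the short-chain dehydrogenase family in the list that holds CBR2 thus fell on both sides. HPGD and RDH10 were on the first and DHRS4, HSD17B7 and CBR4 on the second. GPX4 (log2 0.09) and SOD2 (log2 0.03) were close to even. The genes named in this contrast were chosen after their values were seen.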

How the data were processed

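The values analysed are the deposited UMI counts, not normalized, written by Cell Ranger 6.1.0 per the file headers; version 2.1.1 stands in the submitters' processing notes. No source used here gives the genome build or says whether intron reads were counted. A barcode needed 500 UMIs and 200 genes (1 was removed in library 2, 5 in library 1). Scrublet doublets were removed (2440 or 16.2% in library 2, 1157 or 11.5% in library 1). Cells were clustered in scanpy 1.11.5 on 2000 variable genes without the 3 members (30 components, 15 neighbours, Leiden resolution 1.0), and epithelial-like cells again with 20 components at 0.5. Clusters were named from marker lists, needing 3 markers, a mean log2 fold of 0.5 and a margin of 0.25. Clusters led by cell cycle genes, or shallow ones with none of their markers among their leading genes, were also left unnamed. Together these rules left 9.98% of library 2 cells and 8.20% of library 1 cells unnamed.

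UMIs were summed per class, as CPM with exact Poisson 95% intervals. Ratios have exact conditional binomial intervals, with counts under 3 set to 3, and shares exact Clopper-Pearson ones. No test was run, with 1 library a side. Cells were thinned to 1000 UMIs for shares. The ratio intervals and the ranking of genes by correlation among cells were tested on simulated data. The naming of clusters was not tested in this way. Members and lists were chosen with earlier results of these data known. Named genes are the members and their families, the 5 most like genes by each measure, up to 3 genes a list with the largest ratio at 50 CPM or more, and every list gene 2-fold highest in epithelium. EPCAM and DCXR were not found by symbol. List entries without a symbol row were not analysed here, and reads of close paralogs, such as metallothioneins, may be split between them by the counting. TMM used edgeR 4.0.16. No reference sequence was used.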

Additional observations from a re-analysis of the deposited data

How the results depend on the processing

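Over 11 results, 72 alternative settings were run; 50 moved a value by less than its counting interval or a count by less than 1.5 times, 22 moved it further, and 0 turned a direction. The settings were a stricter filter, doublets kept, separate clustering, other resolutions, members allowed among the clustering genes, TMM, equal cell weights, thinning, a gate on keratin genes and other list minimums. Added after seeing the data were leaving out cilium-led or mixed subclusters, thinning subclusters, keeping cells with at least 3000 UMIs and using UABP-2 in place of ACP5. The cause of each move was not tested. With cells weighted equally, the epithelial log2 ratio was 7.22 for SOD3 and 7.12 for CBR2, and with thinned cells 6.61 for SOD3, 4.61 for GPX3 and 6.21 for CBR2, where SOD3 and CBR2 were left in 0.495% of library 1 cells and GPX3 in 0%. The log2 fold over the next class was 1.56, 1.68 and 1.87 for SOD3, GPX3 and CBR2 with doublets kept, the next class then being T or NK cell-like for each. For SOD3 and GPX3 it was 2.59 and 2.48 with libraries clustered separately, 3.87 and 3.10 with TMM, 3.07 and 2.64 with equal weights, and 3.29 and 2.68 thinned. Between the ACP5-highest and SAL1-highest subclusters, SOD3, GPX3 and CBR2 gave 4.10, 5.19 and -1.69 at subcluster resolution 1.0, and 3.52, 4.73 and -1.73 thinned. TMM scaling adds 0.11 to every epithelial log2 ratio and gives 20 higher and 33 lower list genes, against 19 and 36, members included. No paired analysis was possible because each side is 1 library. Few cells and molecules limit the library 1 levels (231 cells; 23, 2 and 8 UMIs), while depth per cell was a median of 4544 UMIs in library 2 epithelium and 7253 in that of library 1.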
